A study of Mus musculus with 24 samples.

Results

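The genes described here encode the vacuolar proton pump, its accessory proteins and Ragulator, measured as messenger RNA in mouse macrophages. The members are 30 genes listed by symbol: 13 for subunits of the cytosolic V1 sector, 10 for subunits of the membrane V0 sector, 2 for accessory proteins and 5 for Ragulator. Each symbol was matched through GENCODE M21 to 1 row of the deposited expression table, and all 30 were found among its 54532 genes.

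The vacuolar proton pump (V-ATPase) is a rotary machine in the membranes of lysosomes, endosomes and some secretory organelles. Its V1 sector splits ATP, its V0 sector carries protons through the membrane, and the acid it makes is what lysosomal enzymes and receptor recycling need. Several subunits exist as paralogues that fill the same slot in the complex, and some of these paralogues belong mainly to osteoclasts, kidney, inner ear, testis or brain. Ragulator, made of Lamtor1 to Lamtor5, anchors the Rag GTPases to the lysosomal surface beside the pump, and through them amino acids bring the growth kinase complex mTORC1 to the lysosome. Macrophages degrade engulfed material in lysosomes and depend on both assemblies.

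The cells were bone-marrow macrophages of C57BL/6 mice, raised for 7 days in medium that held the secretions of L929 fibroblasts. They were wild-type (WT) or Trem2(-/-), written KO below, Trem2 being a lipid-sensing receptor of macrophages. Both genotypes were left untreated or received 1 of 2 agents for 24 h: 500 nM S1P, the signalling lipid sphingosine-1-phosphate, or ACM, serum-free medium from AML12 hepatocytes made apoptotic with palmitate at 800 µM. Each of the 6 groups had 4 libraries. The sources used here do not state the medium or vehicle of untreated cells, and no group had palmitate alone or medium from healthy AML12 cells. ACM and S1P are therefore compared with untreated cells as whole treatments. The labels name no animal, culture or batch, so p-values measure the spread between libraries, which may be technical. Library numbers run in blocks by genotype and treatment, so order of preparation and group cannot be told apart.

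Depth, recovered from the deposited values, was 16.6 to 25.2 M reads a library, and 10579 to 10892 genes a library reached an FPKM of 1. FPKM is fragments per kilobase of exon scaled to a fixed number of mapped fragments, a level that can be compared between genes. Trem2 was at 74.5 to 109 FPKM in the 12 WT libraries and at 35.7 to 40.7 in 11 of 12 KO libraries, so its transcript was lower but still present. The sources used here do not state which exons the deletion removes. The library labelled KO untreated 81 had Trem2 at 79.6, inside the WT untreated range of 74.5 to 82.7, so the counts and leading values that use it are also given without it. Its pump and Ragulator values lay outside the range of the 3 other KO untreated libraries for 14 of the 23 members tested, as did 66.5% of all genes tested. Each of those 3 libraries lay outside the other libraries of the group for 8 to 13 members, and for 41.4 to 45.8% of all genes tested. Core macrophage genes summed to 4620 FPKM or more in every library, while markers of hepatocytes, fibroblasts and lymphoid cells each summed to less than 1. Other lists were not near 0: granulocyte markers summed to 5.09 to 21.5 FPKM and osteoclast markers to 17.6 to 37.4. Dendritic cell markers summed to 5.36 to 8.68 FPKM, with all but Itgax below 1 in every library.

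The promoters of these genes are shown first, because lysosomal genes as a class often carry the CLEAR element, the site of the transcription factors TFEB, TFE3 and MITF, whose core is CACGTG. RefSeq windows (GRCm38.p6, from 250 bases before to 50 bases after an annotated start, 300 bases in all) were at hand for 23 of the 30 members. CACGTG, which reads the same on both strands, was found in the windows of 6 of these 23 (26.1%), against 8.09% of all 27025 genes with a window. The longer TCACGTGA, which contains it, was in 3 of 23 against 1.12% of genes, and the full palindromic CLEAR consensus in 0 of 23 against 0.37%. The 6 genes with CACGTG were Atp6v0b, Atp6v0d1, Atp6v0e, Atp6v1a, Lamtor1 and Lamtor4. All 6 were among the 16 members with a window that were expressed highly enough to be tested. The share among expressed genes alone was not counted, so the comparison with all genes is not matched for expression. A match of letters is a description of the sequence and does not show that a factor binds there.

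The windows of 5 genes are printed here in the direction of the gene: 4 pump genes that were higher in WT S1P cells, and Lamtor4, which has the same letters in 2 copies and was not called. Capitals mark CACGTG. The windows are chr4:117887280-117887579 (minus strand) for Atp6v0b, chr8:105566015-105566314 (minus) for Atp6v0d1, chr17:26676146-26676445 (plus) for Atp6v0e, chr16:44139210-44139509 (minus) for Atp6v1a and chr5:138255232-138255531 (plus) for Lamtor4.
Atp6v0b: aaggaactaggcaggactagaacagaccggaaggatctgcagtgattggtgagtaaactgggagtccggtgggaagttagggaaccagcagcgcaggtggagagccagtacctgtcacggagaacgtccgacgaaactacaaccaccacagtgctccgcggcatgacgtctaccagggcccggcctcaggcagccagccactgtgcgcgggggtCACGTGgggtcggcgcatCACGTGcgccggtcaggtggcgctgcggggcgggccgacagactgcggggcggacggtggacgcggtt
Atp6v0d1: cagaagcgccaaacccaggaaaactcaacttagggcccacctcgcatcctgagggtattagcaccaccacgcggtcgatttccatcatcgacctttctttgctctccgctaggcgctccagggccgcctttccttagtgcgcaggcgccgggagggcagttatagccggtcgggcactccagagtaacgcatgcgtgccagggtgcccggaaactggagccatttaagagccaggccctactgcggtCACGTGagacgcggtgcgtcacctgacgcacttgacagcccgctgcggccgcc
Atp6v0e: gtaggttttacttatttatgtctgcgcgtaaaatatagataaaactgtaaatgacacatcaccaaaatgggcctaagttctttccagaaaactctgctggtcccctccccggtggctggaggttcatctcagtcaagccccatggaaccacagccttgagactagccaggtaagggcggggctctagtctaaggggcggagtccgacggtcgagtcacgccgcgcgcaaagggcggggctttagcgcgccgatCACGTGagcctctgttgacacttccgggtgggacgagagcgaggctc
Atp6v1a: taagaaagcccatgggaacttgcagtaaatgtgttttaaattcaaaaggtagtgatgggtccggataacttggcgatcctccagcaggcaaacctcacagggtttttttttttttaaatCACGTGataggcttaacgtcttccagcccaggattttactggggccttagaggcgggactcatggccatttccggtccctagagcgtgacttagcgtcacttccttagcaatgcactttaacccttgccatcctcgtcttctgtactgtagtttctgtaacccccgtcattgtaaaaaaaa
Lamtor4: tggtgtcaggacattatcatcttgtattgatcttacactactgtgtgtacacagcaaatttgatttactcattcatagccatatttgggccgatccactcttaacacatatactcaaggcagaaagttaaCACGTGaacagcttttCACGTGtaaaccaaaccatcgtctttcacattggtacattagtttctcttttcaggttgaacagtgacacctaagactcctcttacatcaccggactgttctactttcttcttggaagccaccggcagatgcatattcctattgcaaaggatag
In Atp6v0b the copies begin 36 and 18 bases before the start, and in Atp6v0d1 the copy begins 3 bases before it and so spans the start. The copy of Atp6v0e begins at base 4 of the transcript, that of Atp6v1a 131 bases before the start, and those of Lamtor4 120 and 104 bases before it. The window of Lamtor1, not printed, holds a copy 68 bases before the start. Members whose windows hold no copy include Tcirg1 and Atp6v1f, with log2 changes of 0.57 and 0.55 in WT S1P against WT untreated cells. They also include Atp6v0a1, at 0.03 and not called. A link between these letters and the change with S1P was not tested. TGACNNNGC, the core of the antioxidant response element, was searched on both strands and found in 5 of 23 windows (Atp6v0a1, Atp6v1a, Atp6v1e2, Atp6v1g2 and Lamtor5), 21.7% against 14.0% of genes. Atp6v0a2, Atp6v0d2, Atp6v1b2, Atp6v1c1, Atp6v1g1, Atp6v1h and Lamtor3 had no window in that table.

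For most slots of the pump 1 paralogue gave most of the transcript, and 7 alternative paralogues were at or under about 1 FPKM. Which protein sits in the assembled complex was not measured. Of the 30 members, 6 were below an FPKM of 1 in all 24 libraries: Atp6v1b1, Atp6v1c2, Atp6v1e2, Atp6v1g3, Atp6v0a4 and Atp6v0e2. Atp6v1b1 and Atp6v0a4 are the B and a subunits of acid-secreting cells of kidney and inner ear, and Atp6v1e2 is an E subunit of testis. Atp6v0a4 and Atp6v1e2 were listed at 0 in every library. A count of 0 allows up to 3 reads, which at this depth would be 0.024 to 0.0364 FPKM for Atp6v0a4 and 0.0915 to 0.139 for Atp6v1e2. Atp6v1g3 had 1 read and Atp6v1b1 had 4 reads over all 24 libraries. Atp6v1c2, the alternative C subunit, had 40 reads in all and reached at most 0.117 FPKM, and Atp6v0e2 had 145 reads and reached at most 0.256.

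Atp6v1g2, a G subunit best known from neurons, lay at the edge of the threshold. It was between 0.404 and 1.00 FPKM and below 1 in 23 of 24 libraries, the exception being KO untreated 82. Its 18 to 56 reads a library include any read of Nfkbil1, which shares 144 exon bases with it on the opposite strand. The sources used here do not state the strand setting of the counting, so reads of such pairs cannot be told apart. These 7 genes did not pass the filter for testing, which asked for 4 or more of the 24 libraries at FPKM 1 or above.

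The other 23 members were at 6.35 FPKM or more in every library, far from the threshold. In untreated WT cells Atp6v1g1, a stalk subunit of V1, had the highest level at 185 ± 8.8 FPKM (SD, n = 4). Tcirg1, the a subunit typical of osteoclasts and lysosomes, followed at 146 ± 6.2, with Atp6ap1, an accessory protein of V0, at 144 ± 3.7. The libraries of these last 2 overlap, so their order is not set. Atp6v0b, Atp6v0d1, Atp6ap2, Atp6v1a and Atp6v1f lay between 97.0 and 125 FPKM on average. At the lower end were Atp6v1h at 13.2 ± 0.78, Atp6v0d2 at 10.5 ± 0.66 and Atp6v0a2 at 8.19 ± 0.11, which do not overlap each other. The 5 Ragulator genes spanned 22.99 FPKM (Lamtor3) to 62.7 (Lamtor5), within the middle of the pump's range.

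**Figure D1:**
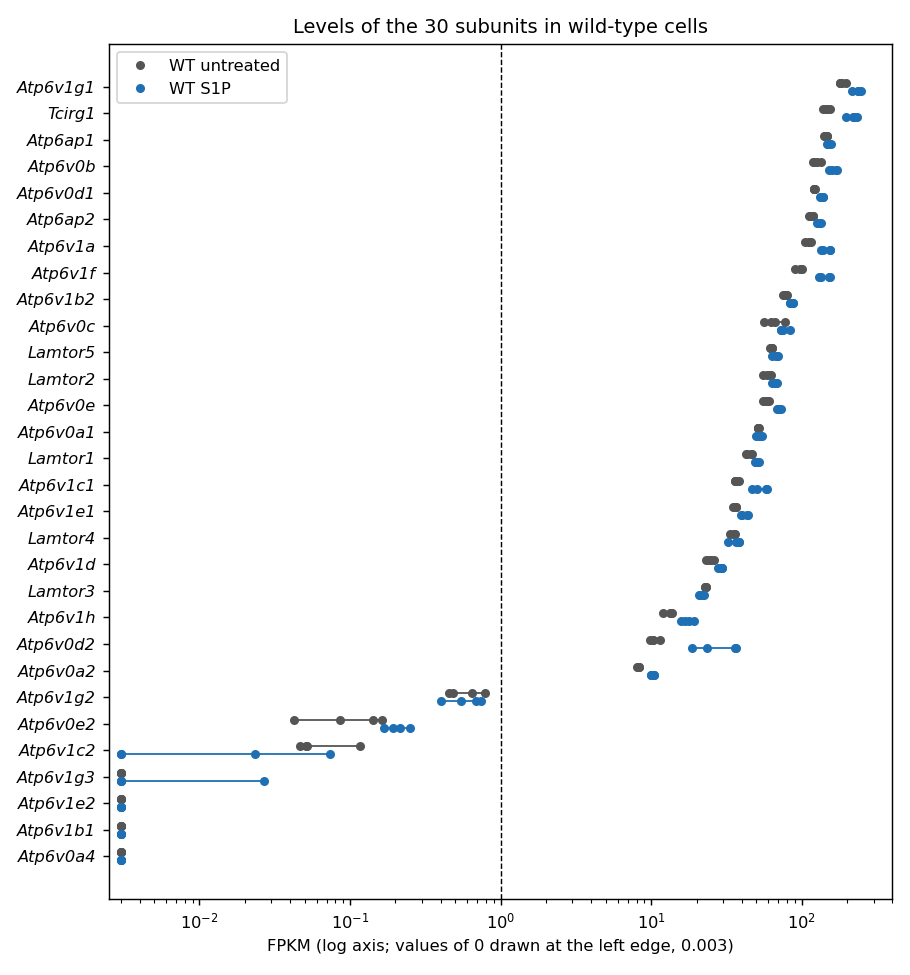
Levels of the 30 genes in the 4 WT untreated (grey) and 4 WT S1P (blue) libraries, 1 point a library, on a log axis of FPKM; lines span the libraries and the dashed line is FPKM 1. All 7 genes left of the dashed line in both groups are alternative paralogues, and Atp6v0d2 is the gene whose blue points lie farthest from its grey ones.

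With FPKM as deposited, transcripts of nearly all pump genes tested were higher in WT S1P than in WT untreated cells. In the comparison of WT S1P with WT untreated, 19 of the 23 members tested were higher and 0 were lower (also 0 at an unadjusted p under 0.05), where 25.2% of all 11377 genes tested were higher and 27.2% lower. A call here means that limma, run on log2(FPKM + 1), gave a p under 0.05 once adjusted over every tested gene by the Benjamini-Hochberg method. The median log2 change of the members was 0.22, beside 0.00 for all genes. By role, 8 of 8 V1 subunits rose with a median of 0.35, 7 of 8 V0 subunits rose with a median of 0.28, both accessory proteins rose, and 2 of 5 Ragulator subunits rose. The libraries of the 2 groups did not overlap for 19 of 23 members (18 higher, 1 lower), against 45.2% of genes tested. For any member whose groups do not overlap, the exact permutation test must give a two-sided p of 0.0286, the smallest that 4 against 4 libraries can give. That p therefore restates the lack of overlap and adds no support to it.

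Among V1 subunits, Atp6v1f changed most. This small subunit of the central stalk is encoded on chr6:29467718-29470512. It measured 90.1, 101, 99.3 and 97.6 FPKM in WT untreated libraries and 130, 135, 155 and 152 in WT S1P libraries. Every S1P library lay above every untreated one, and the log2 change was 0.55 ± 0.05 (SE, limma adjusted p = 1.33e-08). Atp6v1c1, the C subunit that bridges the stalks and comes off when the pump is taken apart, went from 35.8, 36.3, 36.1 and 38.1 FPKM to 46.4, 50.7, 58.1 and 58.8. Its log2 change was 0.53 ± 0.05 (limma adjusted p = 1.99e-08), and its groups did not overlap either.

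Atp6v1a, the catalytic subunit that binds ATP, measured 112, 105, 112 and 116 FPKM untreated and 135, 138, 155 and 154 with S1P, a log2 change of 0.38 ± 0.04 (limma adjusted p = 8.29e-08). Atp6v1h, a regulatory subunit, changed by 0.37 ± 0.05 from 12.0 to 13.7 FPKM untreated to 15.7 to 19.2 with S1P. The peripheral stalk followed with Atp6v1g1 at 0.33 and Atp6v1e1 at 0.20, and the central stalk with Atp6v1d at 0.23. Atp6v1b2, the non-catalytic ATP-binding subunit, moved least of the V1 members at 0.13 ± 0.03 (limma adjusted p = 0.000996). Thus transcripts of the 2 subunits of the ATPase ring itself rose by different amounts, 0.38 and 0.13 on the log2 scale.

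In the V0 sector the largest change of all members was in Atp6v0d2, the alternative d subunit known from osteoclasts and macrophages, on chr4:19876841-19922605. WT untreated libraries measured 10.3, 10.3, 9.80 and 11.4 FPKM. WT S1P libraries 25 to 28 measured 18.6, 23.6, 36.6 and 36.2. All 4 were above the untreated range, but libraries 25 and 26 lay well under 27 and 28. The log2 change was 1.32 ± 0.15, a 2.50-fold higher value on the FPKM + 1 scale (limma adjusted p = 1.43e-07). Atp6v0d1, which fills the same slot in most cells, changed by only 0.16 ± 0.03, from 120 to 123 FPKM untreated to 131 to 138 with S1P.

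Tcirg1, on chr19:3896050-3907133, was the V0 gene with the next largest change. It measured 139, 146, 146 and 154 FPKM in WT untreated libraries and 196, 218, 232 and 224 with S1P, a log2 change of 0.57 ± 0.04 (limma adjusted p = 5.19e-10). The other a subunits tested had smaller values. Atp6v0a2, an a subunit of the Golgi and endosomes, went from 8.04 to 8.29 FPKM to 9.89 to 10.5 (0.28 ± 0.04). Atp6v0a1, the a subunit prominent in neurons, measured 50.9, 51.1, 51.8 and 50.9 untreated and 49.5, 52.0, 52.9 and 54.6 with S1P. Its groups overlap and its log2 change was 0.03 ± 0.03 (limma adjusted p = 0.476), making it the pump member tested that was not called.

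Of the genes for the proton-carrying ring, Atp6v0b rose by 0.38 ± 0.04, from 119 to 135 FPKM untreated to 152 to 171 with S1P. Atp6v0c, the main ring subunit, had overlapping groups at 56.4 to 77.3 and 73.0 to 83.7 FPKM, and its change of 0.22 ± 0.07 (limma adjusted p = 0.0158) was not called without WT untreated 1 (0.0841) or WT S1P 28 (0.069). Atp6v0c also has processed pseudogenes to which reads could be assigned. The small subunit Atp6v0e rose by 0.28 ± 0.04. Atp6v0b and Atp6v0a2 share 243 and 663 exon bases with antisense genes (Gm12841 and 4930404A12Rik), whose reads cannot be told apart from theirs without strand.

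Of the accessory proteins, Atp6ap2, also called the prorenin receptor, rose by 0.16 ± 0.03. Atp6ap1 rose by 0.06 ± 0.02 with overlapping groups (140 to 148 FPKM untreated, 148 to 155 with S1P). Its adjusted p of 0.0365 by limma went to 0.0884, 0.132, 0.114 and 0.0556 without WT untreated 1, WT untreated 3, WT S1P 25 and WT S1P 26.

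Of Ragulator, 2 of 5 subunits rose. Lamtor1, the lipid-anchored subunit that holds the complex to the membrane, measured 43.3, 45.8, 46.5 and 42.5 FPKM untreated and 49.3, 51.6, 48.7 and 49.3 with S1P. Its groups did not overlap and it rose by 0.16 ± 0.04 (limma adjusted p = 0.00532). Lamtor1 shares 600 of its 3215 exon bases with Lrrc51 on the opposite strand. Lamtor2 went from 58.5, 62.3, 61.7 and 55.4 to 67.3, 65.7, 68.0 and 63.3 FPKM, a rise of 0.15 ± 0.06 (limma adjusted p = 0.0263), lost without WT untreated 1 or 4 (0.0579 and 0.1) or WT S1P 25 or 27 (0.0542 and 0.0696).

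The remaining Ragulator subunits were not called with S1P. Lamtor3 measured 23.2, 22.7, 22.8 and 23.2 FPKM untreated and 21.1, 20.9, 21.7 and 22.3 with S1P, a log2 change of -0.09 ± 0.05 (limma adjusted p = 0.0933). It was the 1 member whose S1P libraries all lay under the untreated ones, and without KO untreated 81 its adjusted p was 0.05 after rounding and it was called lower. Lamtor4 measured 33.4 to 36.1 and 32.4 to 38.5 FPKM (0.04 ± 0.06), and Lamtor5 61.1 to 63.5 and 63.9 to 69.5 FPKM (0.10 ± 0.06). Lamtor2 and Lamtor3 bind each other directly within the complex, and their changes with S1P had opposite signs.

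**Figure D2:**
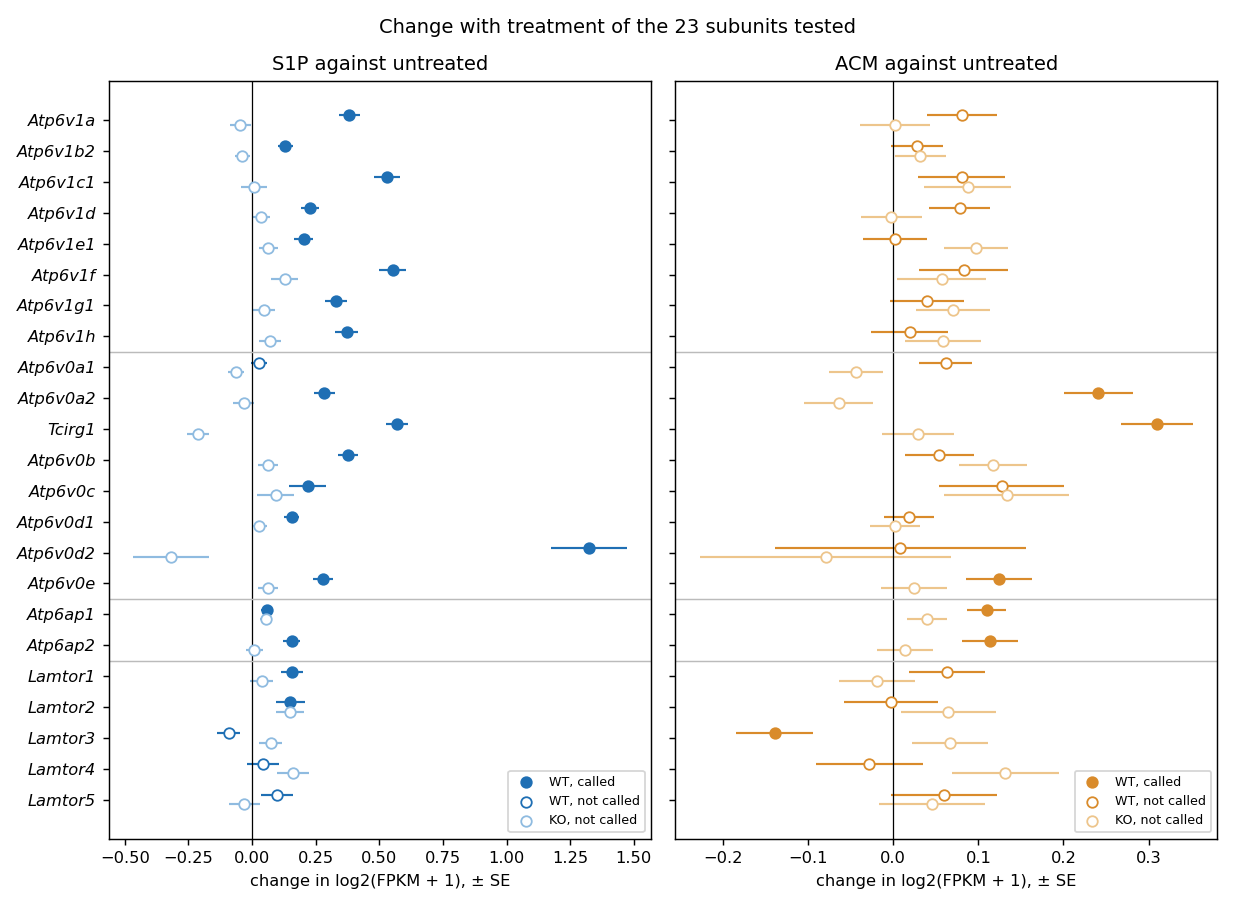
Log2 change with its SE for the 23 members tested, S1P against untreated (left) and ACM against untreated (right), in WT (dark) and KO cells (light); filled points passed limma's adjusted p under 0.05 and grey lines separate V1, V0, accessory and Ragulator genes. The 2 panels have different scales. In the left panel 19 WT points are filled and 0 KO points.

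The 4 WT S1P libraries were uneven in a similar order over the pump. Libraries 27 and 28 both lay above 25 and 26 for 14 of the 18 pump and accessory genes tested (77.8%), against 24.7% of all genes tested. They both lay below 25 and 26 for 2 of the 18 (11.1%), against 29.5% of all genes tested. The split of these libraries was thus not confined to the pump. With any 1 library left out, 16 to 19 members remained called higher. Other genes also differed between the WT untreated and WT S1P groups. The 8 core macrophage genes summed to 7897 to 8094 FPKM in WT untreated libraries and 4646 to 6438 in WT S1P libraries. The 9 osteoclast markers summed to 18.8 to 20.4 and 33.6 to 36.6 FPKM. Of the 6 tested, Acp5, Dcstamp, Mmp9 and Itgb3 rose and Nfatc1 fell, the remaining gene being Ctsk. Calcr, Oscar and Ocstamp were below 1 FPKM in every library. The part of these shifts in the pump values was not tested, and in bulk RNA fewer cells of a type and less RNA per cell cannot be told apart.

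Scaling matters for the smaller changes. With values scaled to a common sum (TPM), 12 of 23 members were called higher with S1P. Atp6v1b2, Atp6v0c, Atp6v0d1, Atp6ap1, Atp6ap2, Lamtor1 and Lamtor2 lost the call. Gm23935, the gene with the largest share, took 5.29 to 9.18% of summed FPKM in WT untreated and 8.82 to 11.9% in WT S1P libraries. With Gm23935 left out of the sum, an alternative chosen after seeing the data, 18 of 23 members were called higher.

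In KO cells no member passed the test with S1P. By limma 0 of 23 were called in KO S1P against KO untreated, where 0.00879% of genes tested were called in either direction. Without the library labelled KO untreated 81, 0 of 23 members and 0.185% of genes were called. At an unadjusted p under 0.05 there were 6 of 23 members, against 10.3% of genes: Tcirg1 and Atp6v0d2 lower, and Atp6v1f, Atp6ap1, Lamtor2 and Lamtor4 higher. The groups did not overlap for 6 of 23 members, against 5.66% of genes. Without library 81 there were 5 of 23 members at an unadjusted p under 0.05 (Tcirg1 and Atp6v0a1 lower, Atp6ap1, Lamtor1 and Lamtor2 higher), against 9.01% of genes, and 7 of 23 that did not overlap, against 11.5%. The median log2 change of the members was 0.04.

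Tcirg1 measured 153, 151, 152 and 153 FPKM in KO untreated libraries (152 in library 81) and 127, 127, 132 and 138 in KO S1P libraries. These ranges do not overlap and lie in the opposite order to WT cells, with a log2 change of -0.21 ± 0.04 (limma adjusted p = 0.109, 0.0774 without library 81, and 0.0159, a call, without WT S1P 25). Atp6v0d2 measured 7.04, 8.32 and 7.84 FPKM in the KO untreated libraries other than 81, 11.1 in library 81, and 6.96, 6.35, 6.64 and 6.40 with S1P, the lowest of its 6 groups. Its log2 change was -0.32 ± 0.15 (limma adjusted p = 0.47) and -0.20 ± 0.15 without library 81. Atp6v1c1 in KO cells measured 39.1, 37.1, 39.0 and 37.7 FPKM untreated and 36.5, 39.1, 39.0 and 39.2 with S1P, a log2 change of 0.01 ± 0.05 (limma adjusted p = 0.976).

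**Figure D3:**
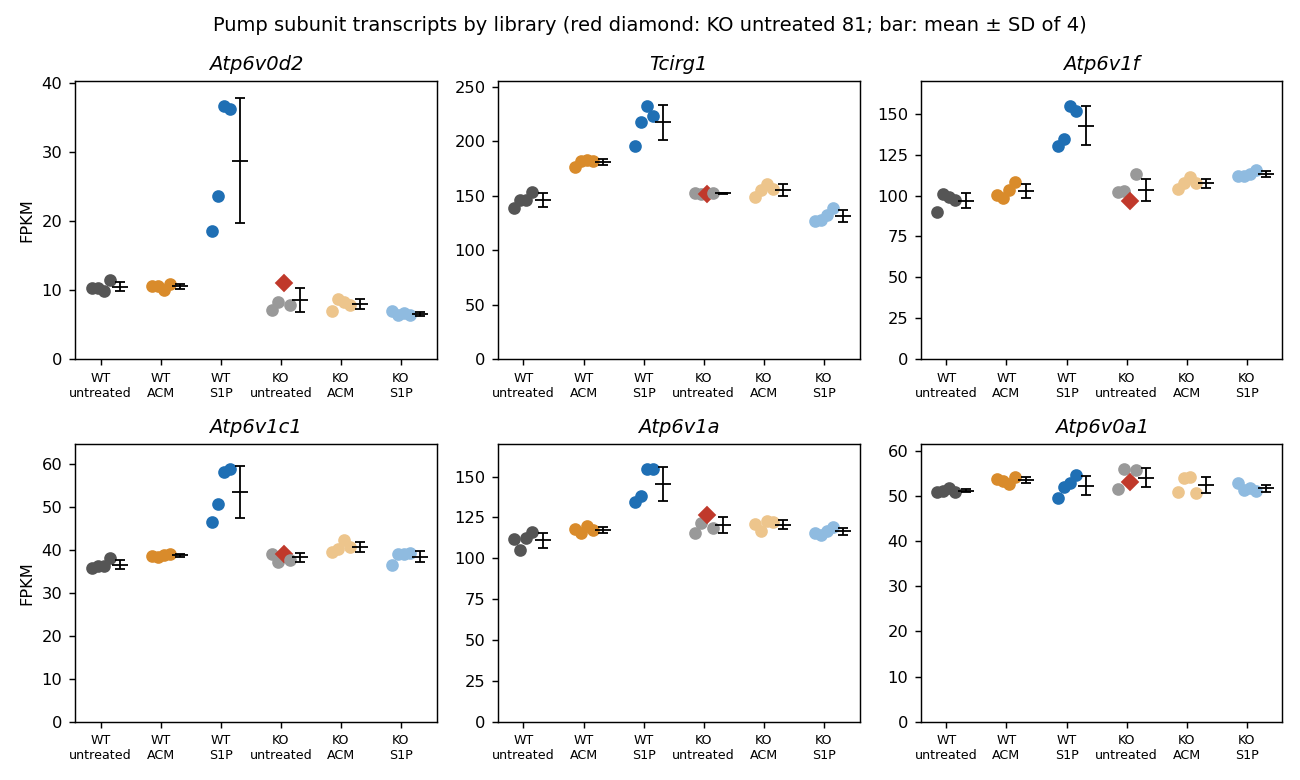
FPKM of 6 pump genes in each of the 24 libraries by group, with the mean ± SD of 4 libraries at the right of each group and the library labelled KO untreated 81 as a red diamond; axes start at 0. Atp6v0d2 in WT S1P libraries spans 18.6 to 36.6 FPKM, above all other groups, and Atp6v0a1 stays between 49.5 and 56.0 in all 24 libraries.

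The difference between genotypes was itself tested as the interaction of S1P and genotype, the change in KO minus the change in WT. It was lower for 15 of 23 members and higher for 1, where 19.4% of genes tested were lower and 22.5% higher. Without KO untreated 81 it was lower for 15 and higher for 0, where 19.2% of genes were lower and 22.3% higher. All 8 V1 subunits, 6 of 8 V0 subunits and Atp6ap2 were lower. Atp6v0d2 had an interaction of -1.64 ± 0.21 (limma adjusted p = 2.35e-06; -1.52 ± 0.20 without KO untreated 81), and Tcirg1 one of -0.78 ± 0.06 (limma adjusted p = 3.48e-09; -0.78 ± 0.06 without 81). Atp6v1c1 followed at -0.52, Atp6v1a at -0.43 and Atp6v1f at -0.42. For these 5 genes the call held in all 33 alternatives. The interaction uses the same WT S1P libraries as the comparison with WT untreated cells. So do the comparisons of WT S1P with KO S1P and with WT ACM cells given below. These results are therefore not separate support for each other.

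Atp6v0c, Atp6v0a1, Atp6ap1 and 4 of the 5 Ragulator genes had no call for the interaction. Atp6v0a1 gained one without KO untreated 79 (0.04) or WT S1P 25 (0.028), and Lamtor1 without KO untreated 80 (0.0492). Lamtor3 was the 1 member called higher, at 0.17 ± 0.06 (limma adjusted p = 0.0407), and it was not called in 15 of 33 alternatives, library 81 left out among them (0.0939). Atp6v1e1, at -0.14 ± 0.05 (limma adjusted p = 0.0378), was called in 19 of 33 alternatives and in 15 of 24 fits with 1 library left out, where its highest p was 0.0925, without WT S1P 28. With TPM scaling 9 members were called lower, and with Gm23935 left out of the sum 14 were.

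Most pump genes were lower in KO than in WT cells under S1P. Of 23 members 13 were lower and 2 higher in KO S1P than in WT S1P, where 25.4% of genes were lower and 26.9% higher. The groups did not overlap for 16 members (13 lower, 3 higher), against 46.6% of genes. Atp6v0d2 was lower by -1.92 ± 0.15 on the log2 scale (limma adjusted p = 8.58e-10) and Tcirg1 by -0.72 ± 0.04 (limma adjusted p = 1.76e-11). Atp6v1c1 was at -0.46, Atp6v1f at -0.33, Atp6v1a at -0.31, Atp6v0b at -0.31 and Atp6v1b2 at -0.21. Atp6v0c, at -0.20, lost its call without KO S1P 93 or 94 or WT S1P 28 (0.0574, 0.0649 and 0.101), and Atp6v1e1 gained one without library 81 (0.0359) or WT S1P 25 or 26 (0.0199 and 0.0427). The exceptions were Atp6ap1, higher in KO cells by 0.09 ± 0.02 (158 to 161 against 148 to 155 FPKM), and Lamtor3, higher by 0.17 ± 0.04 (23.4 to 25.3 against 20.9 to 22.3 FPKM). Granulocyte markers moved with genotype as well, summing to 18.6 to 21.5 FPKM in KO S1P and 7.01 to 9.53 in WT S1P libraries, with Ly6g, Mpo, Camp and Ltf below 1. Osteoclast markers summed to 17.8 to 18.7 FPKM in KO S1P libraries. Core macrophage genes overlapped between the genotypes, at 4913 to 5105 FPKM in KO S1P and 4646 to 6438 in WT S1P libraries. The part of these markers in the differences was not tested.

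Without treatment few of these genes were called between the genotypes. Only Atp6v1d (0.16 ± 0.04, limma adjusted p = 0.0189) and Atp6ap1 (0.09 ± 0.02, limma adjusted p = 0.0411) were called, both higher in KO cells, 2 of 23 where 1.26% of genes were higher. Atp6v1d measured 24.2, 25.1, 23.1 and 25.95 FPKM in WT and 28.3, 27.9, 27.1 and 26.97 in KO untreated libraries. Both calls held without library 81, where 4.13% of genes were higher, but were lost without KO untreated 79 (0.0664 for each) or 80 (0.0613 and 0.0926), and without WT untreated 1 (0.0529 and 0.0916) or 3 (0.0706 and 0.127). The call of Atp6ap1 was also lost without WT untreated 4 (0.0617) and KO untreated 82 (0.12), and without several libraries of the treated groups. At an unadjusted p under 0.05 there were 6 of 23 members, all higher, against 16.4% of genes in either direction. Atp6v0d2 was not called, at -0.28 ± 0.15 (limma adjusted p = 0.363). Its KO untreated libraries other than 81 measured 7.04, 8.32 and 7.84 FPKM, under the WT untreated range of 9.80 to 11.4. Library 81, at 11.1, lay inside that range. Without library 81 the change of Atp6v0d2 was -0.39 ± 0.15 (limma adjusted p = 0.114). Core macrophage genes also differed, summing to 7897 to 8094 FPKM in WT and 4620 to 6715 in KO untreated libraries. The part of this in the pump values was not tested.

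With ACM fewer members were called in WT cells than with S1P, and none of V1. Against WT untreated cells 5 of 23 were higher and 1 lower, where 12.2% of genes tested were higher and 9.85% lower. V1 had 0 of 8 called by limma (1 of 8, higher, at an unadjusted p under 0.05), V0 had 3 of 8 higher, both accessory proteins were higher, and Lamtor3 was lower. At an unadjusted p under 0.05 the totals over all 23 members were 6 higher and 1 lower, against 34.5% of all genes in either direction. Atp6v1c1 of V1, at 38.3 to 39.1 FPKM with ACM and 35.8 to 38.1 untreated, did not overlap, and its change of 0.08 was called when only these groups were fitted (limma adjusted p = 0.0492).

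Tcirg1 again led, at 177, 182, 183 and 182 FPKM with ACM against 139, 146, 146 and 154 untreated. The groups did not overlap, and the log2 change was 0.31 ± 0.04 (limma adjusted p = 2.58e-05). Atp6v0a2 rose by 0.24 ± 0.04 (limma adjusted p = 0.000232), to 9.76, 9.64, 10.5 and 9.61 FPKM, and with TPM scaling by 0.14 with no call (limma adjusted p = 0.101). Atp6v0e rose by 0.12 ± 0.04, Atp6ap2 by 0.11 ± 0.03 and Atp6ap1 by 0.11 ± 0.02. Lamtor3 fell by 0.14 ± 0.05, to 19.5, 21.3, 21.3 and 21.2 FPKM. Osteoclast markers, Tcirg1 not among them, summed to 34.01 to 37.4 FPKM in WT ACM libraries, and their part in this was not tested. Atp6v0d2, the gene with the largest S1P change, measured 10.6, 10.6, 10.0 and 10.8 FPKM with ACM, inside its untreated range of 9.80 to 11.4 (0.01 ± 0.15, limma adjusted p = 0.978).

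These smaller ACM calls were fragile. Under TPM scaling only Tcirg1 was higher. Atp6ap1 and Atp6ap2 changed sign there (-0.0076 and -0.0037), a scaling that shifts the median of all genes by -0.11 on the log2 scale. Gm23935 took 9.87 to 14.5% of summed FPKM in WT ACM libraries. With it left out of the sum 3 members were higher. Single libraries also decided calls by limma: without WT ACM 21, Atp6v0e and Atp6ap2 had adjusted p of 0.0835 and 0.0522. Atp6v0e was lost without WT untreated 1 or 4 (0.0906 and 0.0638), and Atp6ap2 without WT untreated 2 (0.0586). Lamtor3 was lost without WT ACM 19 (0.112) or WT untreated 1, 3 or 4 (0.0651, 0.0508 and 0.0675), and Atp6v0c was gained without WT untreated 2 (0.0311).

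Most pump genes were lower with ACM than with S1P. In WT ACM against WT S1P 14 of 23 members were lower and 0 higher by limma (15 and 1 at an unadjusted p under 0.05), where 18.5% of genes were lower and 23.0% higher. All 8 V1 subunits were lower, along with 5 of 8 V0 subunits and Lamtor2. Atp6v0d2 had the largest difference at -1.32 ± 0.15, then Atp6v1f at -0.47 and Atp6v1c1 at -0.45. Tcirg1, which was higher with either treatment than in untreated WT cells, was lower with ACM than with S1P by -0.26 ± 0.04. Atp6v0a2 did not pass this test, at -0.04 ± 0.04 (limma adjusted p = 0.426), with 9.61 to 10.5 FPKM under ACM and 9.89 to 10.5 under S1P. Lamtor2 lost its call of 0.0298 by limma without WT ACM 19 or 20 (0.0556 and 0.0943) or WT S1P 25 or 27 (0.0577 and 0.0811).

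In KO cells ACM gave 0 of 23 calls by limma, with 0.00879% of genes called, and 0 of 23 without library 81 with 0.0439% of genes. At an unadjusted p under 0.05 there were 3 of 23, all higher, against 9.17% of genes, and without library 81 there was 1 (Atp6v0b, higher), against 7.78%. The interaction of ACM and genotype was called for Tcirg1 (-0.28 ± 0.06, limma adjusted p = 0.00251), Atp6v0a2 (-0.30 ± 0.06, limma adjusted p = 0.00102) and Lamtor3 (0.21 ± 0.06, limma adjusted p = 0.0295). That is 2 of 23 lower and 1 higher, where 9.64% of genes were lower and 7.41% higher. Without library 81 it was 2 lower and 0 higher, where 8.75% of genes were lower and 6.16% higher. With TPM scaling Tcirg1 (0.248) and Atp6v0a2 (0.109) were not called, nor was Tcirg1 with quantile normalization (0.068). Lamtor3 lost this call without library 81 (0.0607), KO ACM 87 or 88 (0.0641 and 0.0652), WT ACM 19 (0.0683) or WT untreated 1 or 4 (0.0503 and 0.0518).

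Between the genotypes under ACM, 2 of 23 were higher in KO cells and 2 lower, where 12.5% of genes were higher and 15.5% lower. Atp6v0a2 (-0.25 ± 0.04) and Tcirg1 (-0.22 ± 0.04) were lower. Lamtor3 (0.21 ± 0.05) and Atp6v1e1 (0.15 ± 0.04) were higher. Atp6v0d2 was at -0.36 ± 0.15 and not called (limma adjusted p = 0.0716, and 0.0191, 0.0455 and 0.0487 without WT S1P 25, 27 and 28), and Lamtor1 was called lower without library 81 (0.0143). Lamtor4 was called higher without KO ACM 85 or 86 or WT S1P 28 (0.0251, 0.0344 and 0.0415), Lamtor2 without KO ACM 85 (0.0366) and Atp6v1d without KO ACM 86 (0.0225). The count higher in KO cells was 9 with TPM scaling that left out Gm23935 and 7 with quantile normalization. Granulocyte markers summed to 21.1 to 21.5 FPKM in KO ACM and 5.09 to 7.02 in WT ACM libraries, and osteoclast markers to 17.6 to 20.05 and 34.01 to 37.4. Core macrophage genes summed to 4798 to 5167 FPKM in KO ACM and 6544 to 7275 in WT ACM libraries. Their part in these differences was not tested. Among KO cells, Tcirg1 alone differed between ACM and S1P, 148 to 161 against 127 to 138 FPKM, at 0.24 ± 0.04 (limma adjusted p = 0.0335). This was 1 of 23 where 0.0352% of genes were called. It was called in 18 of 33 alternatives, and the adjusted p without single libraries reached 0.193 (without KO S1P 92).

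For 2 slots the transcript of each paralogue was followed as a share of summed FPKM over paralogues. These shares were looked at after the values had been seen and carry no test. In the a slot Tcirg1 held 71.1 ± 0.92% (SD, n = 4) in untreated WT cells, 74.1 ± 0.37% after ACM and 77.6 ± 0.85% after S1P, and the ranges of these 3 groups do not overlap. In KO cells it held 70.9 ± 0.86% untreated (70.9% in library 81), 71.9 ± 0.50% with ACM and 68.6 ± 1.1% with S1P. Atp6v0a1 moved the other way, from 24.9 ± 0.76% to 18.7 ± 0.63% in WT cells with S1P, and stood at 27.01 ± 0.94% in KO cells with S1P. Its level in those WT S1P libraries, 49.5 to 54.6 FPKM, overlapped the untreated one.

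In the d slot Atp6v0d2 held 7.95 ± 0.49% in WT untreated and 7.90 ± 0.37% in WT ACM libraries. With S1P its share was 12.2 to 20.97%, above every other library. KO libraries held 5.26 to 6.10% untreated apart from library 81 at 8.21%, then 5.15 to 6.38% with ACM and 4.44 to 5.27% with S1P. Atp6v0d1 held the rest, 79.03% or more in every library.

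**Figure D4:**
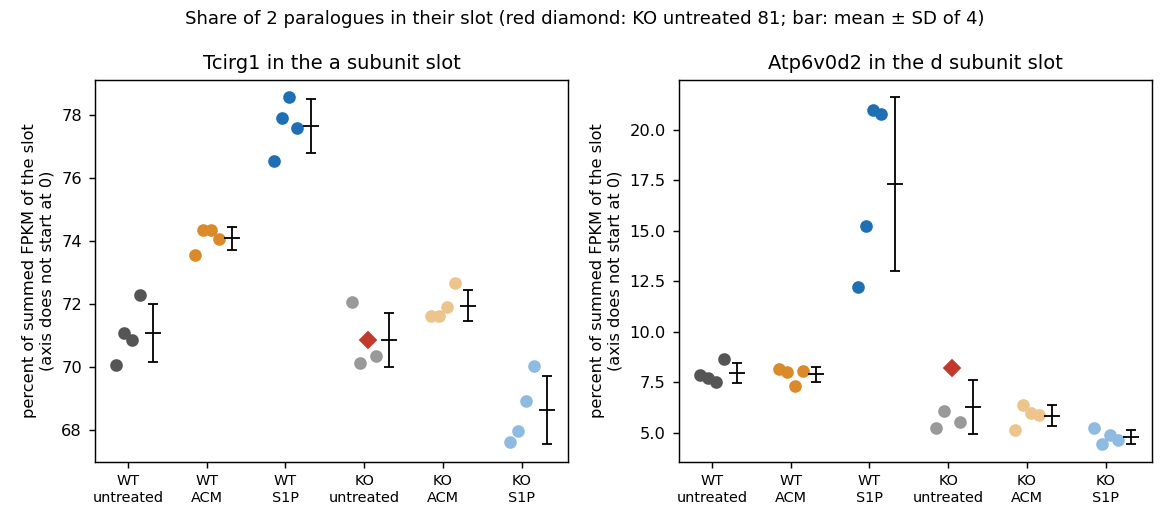
Share of Tcirg1 among the 4 a subunit genes (left) and of Atp6v0d2 among the 2 d subunit genes (right), in percent of summed FPKM, 1 point a library, with mean ± SD and the library labelled KO untreated 81 in red; the axes do not start at 0. Both shares are highest in the 4 WT S1P libraries and lowest on average in the KO S1P libraries.

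Beside the pump, 6 lists of related genes were counted in WT cells with S1P, and each count stands against 25.2% of all genes higher and 27.2% lower. Of 11 genes tested that assemble or steer the pump, 4 rose and 3 fell, with a median log2 change of -0.07. Tmem199, which helps to assemble V0 in the early secretory pathway, rose by 0.43 ± 0.07, Tldc1 by 0.32 ± 0.08 and Wdr7, part of the rabconnectin complex that reassembles the pump, by 0.16 ± 0.03. Ccdc115, the partner of Tmem199 in assembly, fell by 0.17 ± 0.05, so these partners moved in opposite directions. Oxr1 fell by 0.16 ± 0.05 and Rogdi by 0.27 ± 0.11 (limma adjusted p = 0.0492).

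Among 10 genes of the Rag GTPases and mTORC1, 3 rose and 1 fell with S1P. Rraga (0.51 ± 0.05) and Rragd (0.51 ± 0.08), GTPases that sit on Ragulator, rose, and so did Akt1s1 (0.52 ± 0.07), an inhibitory subunit of mTORC1. Deptor, another inhibitor, fell by 0.24 ± 0.07. Of 21 regulators of the Rag GTPases 9 rose and 3 fell. Fnip2, a partner of folliculin, rose by 0.57 ± 0.07, Sesn2 by 0.44 ± 0.06 and Sec13 by 0.24 ± 0.04. Sesn1 fell by 0.84 ± 0.07, Sesn3 by 0.26 ± 0.06 and Depdc5 by 0.19 ± 0.05, so the sestrins, which sense amino acids and stress, split.

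The MiT/TFE factors, which bind the CLEAR element, split too: of 4 tested Tfeb rose by 0.20 ± 0.06, while Tfe3 fell by 0.13 ± 0.03 and Tfec by 0.20 ± 0.06. BORC and Arl8, which move lysosomes along microtubules, had 4 of 9 higher and 1 lower. Arl8a rose by 0.40 ± 0.04, Arl8b by 0.29 ± 0.04 and Snapin by 0.25 ± 0.05, and Borcs5 fell by 0.21 ± 0.07. Of 10 lysosomal ion channels and exchangers 4 rose and 5 fell. The chloride-proton exchanger Clcn7, which supplies the counter-ion to the pump, rose by 0.56 ± 0.04, the lysosomal channel gene Tpcn2 by 0.43 ± 0.04 and the calcium channel gene Mcoln1 by 0.31 ± 0.05. Slc9a9, an endosomal sodium-proton exchanger, fell by 1.22 ± 0.11, Clcn5 by 0.44 ± 0.05 and Ostm1, the partner of Clcn7, by 0.10 ± 0.03.

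In KO cells with S1P, 0 of the 65 genes of these 6 lists were called by limma, where 0.00879% of all genes tested were called. An unadjusted p under 0.05 was seen for 5 of the 65 (1 higher, 4 lower), against 10.3% of all genes. Without library 81 there were 0 called, against 0.185% of all genes, and 6 at an unadjusted p under 0.05 (2 higher, 4 lower), against 9.01%. The interaction with genotype was called for Clcn7 (-0.66 ± 0.06), Tpcn2 (-0.65 ± 0.06), Rraga (-0.62 ± 0.07), Fnip2 (-0.65 ± 0.10) and Arl8a (-0.37 ± 0.06), all in the direction of the pump genes, and in the other direction for Slc9a9 (1.22 ± 0.15) and Sesn1 (0.82 ± 0.09). Without library 81 these 7 interactions were still called. These 7 genes were named for a small adjusted p in WT cells, and the interaction uses the same WT libraries. It is therefore not separate support for them. Over all 65 genes, 35 had an interaction at an unadjusted p under 0.05 (22 lower, 13 higher), against 49.2% of all genes tested. With ACM in WT cells, where 12.2% of all genes were higher and 9.85% lower, the same lists gave 1 of 11, 2 of 10, 2 of 21, 0 of 4, 0 of 9 and 2 of 10 higher. In the same order 0, 1, 2, 1, 0 and 1 were lower, Deptor by -0.32 ± 0.07, Sesn1 by -0.23 ± 0.07, Tfec by -0.23 ± 0.06 and Slc9a9 by -0.33 ± 0.11 among them. Vma21, an assembly factor of V0, rose by 0.33 ± 0.11, Rraga by 0.36 ± 0.05, Sesn2 by 0.28 ± 0.06, Tpcn2 by 0.42 ± 0.04 and Clcn7 by 0.29 ± 0.04. Rraga, Clcn7, Tpcn2, Sesn2 and Sec13 thus rose with both treatments in WT cells, as Tcirg1 did.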

How the data were processed

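Messenger RNA was captured with oligo(dT), per the labels' protocols, and the authors deposited FPKM values for 54532 genes in 24 libraries. STAR-Fusion, STAR, HISAT2, StringTie, featureCounts, DESeq and edgeR are listed per the submitters' processing notes, with GRCm38 and mm10. The sources used here state no role, version or strand setting. Read numbers were recovered from FPKM, exon length and depth, with 96.4 to 96.7% of values a library whole within 0.05, except for Tcirg1 and Atp6v0e, whose read numbers are not given.

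The 11377 genes with 4 or more of 24 libraries at FPKM 1 or above were fitted on log2(FPKM + 1) with limma 3.58.1 (R 4.3.3), as 6 group means with a mean-variance trend, in 11 comparisons, with Benjamini-Hochberg adjustment over all genes. This scale understates changes of low genes. All 24 libraries entered as labelled; the library KO untreated 81 was also left out. The 33 alternatives were other pseudocounts, filters, scalings and models, and each library left out. Members and gene lists were chosen with earlier results of these data known. All 30 members are accounted for. Those called in WT cells with the largest change in each sector, every paralogue of a slot and all of Ragulator are given in full. Of the other pathway lists, up to 3 genes in each direction with the smallest adjusted p are named.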

Additional observations from a re-analysis of the deposited data

Results flagged for a closer look

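The change with S1P differed between the genotypes for 16 members by the interaction in limma. The values, KO minus WT on the log2 scale, were -1.6422 for Atp6v0d2, -0.7814 for Tcirg1, -0.523 for Atp6v1c1, -0.4287 for Atp6v1a, -0.4249 for Atp6v1f, -0.3175 for Atp6v0a2, -0.3134 for Atp6v0b and -0.3017 for Atp6v1h. Smaller values were -0.2808 for Atp6v1g1, -0.2171 for Atp6v0e, -0.1932 for Atp6v1d, -0.1687 for Atp6v1b2, -0.1471 for Atp6ap2, -0.14 for Atp6v1e1 and -0.1279 for Atp6v0d1. Lamtor3 had 0.1659. The change with ACM differed for Atp6v0a2 (-0.3049), Tcirg1 (-0.281) and Lamtor3 (0.2061).

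A single library stood apart from the other 3 of its group in 4 of 138 checks of a member in a group, where chance alone marks about 1 in 20. Lamtor3 was low in WT ACM 19 at 19.4515 FPKM, and Tcirg1 was low in the same library at 176.8036. Atp6v1c1 was low in KO S1P 91 at 36.5054 FPKM, and Atp6v1h was low in KO untreated 80 at 13.2708.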

How the results depend on the processing

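Over 23 members, 11 comparisons and 33 alternatives, 8159 of 8349 values stayed on their side of the threshold, 137 lost and 51 gained a call, and 2 of the called values changed sign: Atp6ap1 (-0.0076) and Atp6ap2 (-0.0037) in WT ACM with TPM scaling. Counts of members called moved as follows. With TPM scaling there were 1 higher in WT ACM, 12 higher in WT S1P, 0 higher for KO against WT untreated and under S1P, 1 lower under ACM, 0 higher for KO ACM against KO S1P, 0 lower for the ACM interaction, and 0 higher and 9 lower for the S1P interaction. Leaving Gm23935 out of that sum gave 3 higher in WT ACM, 9 higher for KO against WT under ACM and 0 higher for the S1P interaction. Quantile normalization gave 2 higher in WT ACM, 1 higher for KO against WT untreated and 7 under ACM, 0 for KO ACM against KO S1P, 1 lower for the ACM interaction and 0 higher for the S1P interaction. Without a filter there were 0 lower in WT ACM and 0 higher for KO ACM against KO S1P and both interactions; median scaling gave 0 higher for KO ACM against KO S1P and the S1P interaction. Fitting only the groups compared gave 1 lower in WT S1P, 0 higher for KO against WT untreated and 4 lower under ACM. Leaving out 1 library gave 16 to 19 higher and 0 to 1 lower in WT S1P, 3 to 5 and 0 to 1 in WT ACM, 0 to 1 lower in KO S1P, 0 to 2 higher for KO against WT untreated, 2 to 4 higher and 2 to 3 lower under ACM, 12 to 14 lower under S1P, 0 to 1 higher and 13 to 15 lower for WT ACM against WT S1P, 0 to 1 higher for KO ACM against KO S1P, 0 to 1 higher and 2 to 3 lower for the ACM interaction, and 0 to 1 higher and 14 to 16 lower for the S1P interaction. The cause was not tested. No paired analysis was possible because the library numbers do not recur between groups. The 6 members below FPKM 1 rest on few reads, where depth limits what can be seen.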
